A study of Zea mays with 4 samples.

Results

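The members are 10 genes of the plant circadian clock, taken by gene name from the locus table of a maize leaf RNA-Seq experiment. They are CCA1 and LHY, 2 TOC1 genes, GI1 and GI2, and 4 further genes of the pseudo-response regulator (PRR) family. Each name stood on a single row of the table, which lists 43110 distinct loci, and no member was missing. Leaf 6 of the inbred line B73 was sampled from plants grown in hydroponic solution with low nitrogen (LN, 0.04 mM nitrate) or high nitrogen (HN, 4 mM nitrate), with 2 libraries per treatment. All plants started on the high nitrogen solution in a growth chamber with a daily light and dark cycle, some were moved to the low nitrogen solution once the third leaf was fully expanded, and calcium was kept equal between the solutions. For sequencing, the methods describe the mature tissue of a leaf that was still expanding. The hour of harvest of each library and the number of plants behind it are not given in the sources used here, and while the 2 libraries of a treatment are called biological replicates, nothing says whether they came from separate pots or harvests, so p-values measure the spread between these samples.

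The clock is a loop of transcription factors that repress each other in turn through the day, and most of what follows on their roles was worked out in Arabidopsis. CCA1 and LHY are related MYB-type factors whose transcripts peak around dawn and which repress the evening genes. The PRR proteins appear one after another through the day and repress CCA1 and LHY, and TOC1, itself a PRR protein, peaks last, around dusk. GI (GIGANTEA) is a large protein of the late day that acts with a light-sensing F-box protein in the turnover of TOC1 and links the clock to flowering. Since morning and evening transcripts run in opposite directions, the ratio between them moves with the phase at which a leaf was frozen. It also moves with the level of any single gene in it, so it does not read phase alone. The comparison here asks whether that ratio was alike in the low nitrogen and high nitrogen libraries.

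Expression was deposited as FPKM, a fragment count scaled by transcript length and library size, which allows levels to be compared between genes. All 10 members had at least 1 FPKM in at least 2 libraries and so were among the 22889 loci tested. Differences are on the scale of log2(FPKM + 1), on which the change of weakly expressed loci looks smaller than it is, and were tested with limma, with Benjamini-Hochberg adjustment over all tested loci. Calling required an adjusted p under 0.05 together with a log2 fold change above 1 in size. For any one gene, 2 libraries against 2 allow an exact permutation p of 0.333 at the least (two-sided), so the p-values lean on the spread limma shares over loci. Read totals are not part of FPKM. Judged by the FPKM that 1 fragment adds at weakly expressed loci, LN replicate 1 was sequenced about 1.4 times, LN replicate 2 about 1.7 times and HN replicate 2 about 1.1 times as deeply as HN replicate 1. The FPKM of all loci summed to between 1043303 and 1141129 in the LN libraries and to between 1764398 and 1798408 in the HN libraries, while the median log2 FPKM of loci expressed in every library lay between 3.53 and 3.57. As a check of the leaf label, the C4 enzyme gene of PEP carboxylase (GRMZM2G083841) was at 2630 to 4803 FPKM in LN and 13126 to 19557 FPKM in HN, while the meristem gene kn1 was listed at 0 in all 4 libraries.

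No clock gene was called between the treatments. At 8 of 10 members the difference between libraries of the same treatment, averaged over both treatments, exceeded the difference between the treatment means, against 46.2% of all tested loci. CCA1 and LHY were lowest in LN replicate 1, next in HN replicate 1, and high in both libraries numbered 2. The TOC1 and GI genes ran the other way, with LN replicate 1 highest and HN replicate 1 next. The plot of FPKM by gene and library shows this mirror order together with the 4 other PRR genes, whose highest and lowest libraries were at most 1.04 apart on the log2 scale. In leaf tissue sampled whole, fewer cells of a type and less RNA per cell cannot be told apart, which holds for every level given here.

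**Figure D1:**
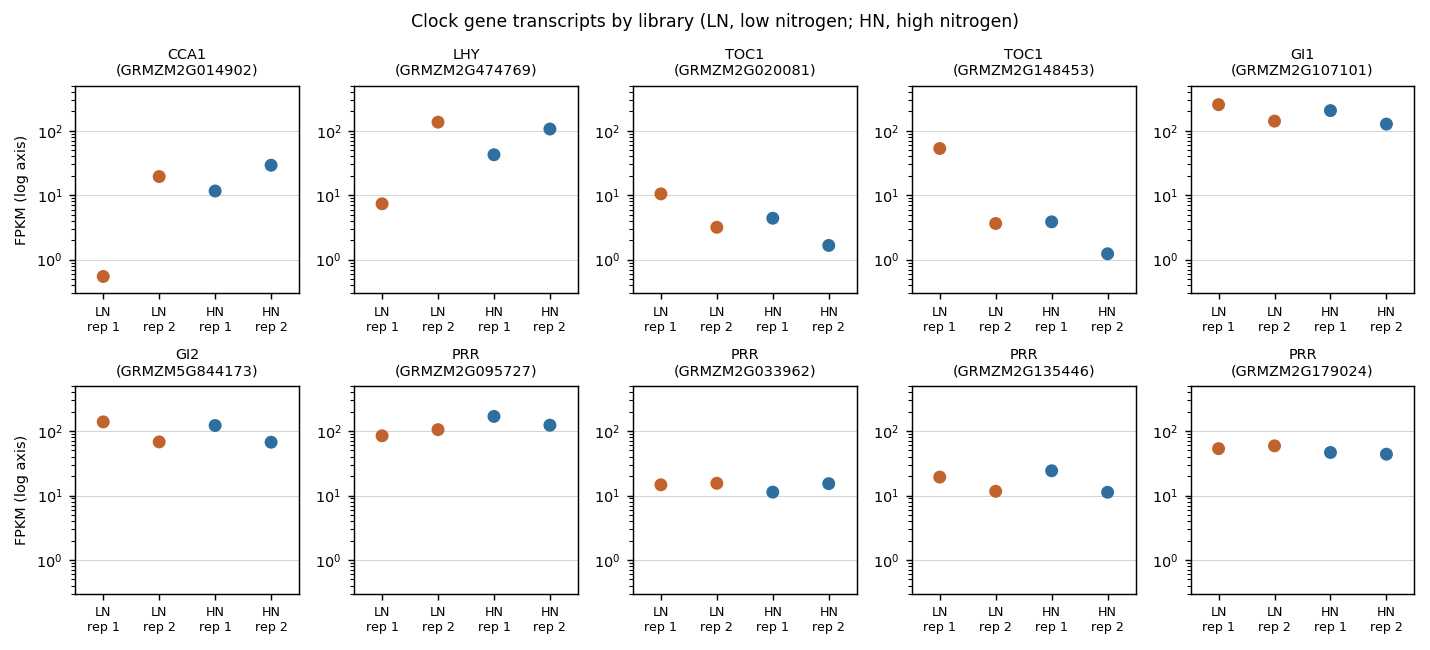
FPKM of each of the 10 clock genes (vertical log axis) in the 4 libraries, LN in orange and HN in blue, 1 point per library. CCA1 and LHY are lowest in LN replicate 1 and the TOC1 and GI genes highest there, and the LN points overlap the HN points in all genes but GRMZM2G095727 and GRMZM2G179024.

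CCA1 (GRMZM2G014902) is placed at 32527702 to 32560791 on chromosome 4 (B73 RefGen_v3). It had 0.548 and 19.5 FPKM in LN replicates 1 and 2, against 11.6 and 29.2 FPKM in HN replicates 1 and 2. The LN libraries thus lay on both sides of HN replicate 1, and the treatments overlapped. Mean expression was 10.01 ± 13.4 FPKM in LN and 20.4 ± 12.4 FPKM in HN (SD, n = 2 each), a log2 fold change of -1.79 (standard error 1.26, 95% interval -5.05 to 1.46, limma adjusted p = 0.479). Between the 2 LN libraries CCA1 differed 35.5-fold, and between the 2 HN libraries 2.51-fold, replicate 2 being the higher in each. Without LN replicate 1 the difference was 0.068, so the negative value rests on that library, and without LN replicate 2 it was -3.66.

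LHY (GRMZM2G474769), the partner of CCA1, lies on chromosome 10 from 78333602 to 78392641. The table gives the same locus a further name, GRMZM2G175265, and the reference lists both names as a single gene. It had 7.36 and 136 FPKM in LN replicates 1 and 2, against 42.4 and 106 FPKM in HN replicates 1 and 2. LN replicate 1 was the lowest and LN replicate 2 the highest of the 4 libraries, so both HN libraries fell within the span of LN. On the log2 scale LHY differed by -1.01 (standard error 1.36, 95% interval -4.52 to 2.49, limma adjusted p = 0.720), and by 1.003 without LN replicate 1 and -3.03 without LN replicate 2. LHY exceeded CCA1 in FPKM in every library, 13.4-fold and 6.98-fold in LN replicates 1 and 2, and 3.65-fold and 3.64-fold in HN replicates 1 and 2. The ratio of these partners was therefore nearly the same in the HN libraries and higher in both LN libraries, although the CCA1 level in LN replicate 1, below 1 FPKM, makes the first of these ratios imprecise. The ratio was not tested between treatments, and how often ratios of other gene pairs fail to overlap was not computed. For the levels of single loci, the share without overlap between treatments was 53.8% of all tested loci.

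The 2 TOC1 genes encode the evening PRR protein that represses CCA1 and LHY. GRMZM2G148453 lies on chromosome 5 from 185461746 to 185465012 and had 53.1 and 3.64 FPKM in LN replicates 1 and 2, against 3.86 and 1.23 FPKM in HN replicates 1 and 2. LN replicate 1 stood alone, 13.7-fold above HN replicate 1, while LN replicate 2 lay between the HN libraries. This gave a log2 fold change of 2.27 (standard error 1.20, 95% interval -0.82 to 5.35, limma adjusted p = 0.362), the largest of the 10 members in size. It was 0.49 without LN replicate 1, but 4.04 without LN replicate 2. Each of these leaves 1 LN library and so holds no spread within LN.

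GRMZM2G020081, the other TOC1 gene, lies on chromosome 4 from 140726569 to 140729617 and had 10.5 and 3.18 FPKM in LN replicates 1 and 2, against 4.40 and 1.66 FPKM in HN replicates 1 and 2. The 4 libraries had the same order as for the first TOC1 gene, over a narrower span. Its log2 fold change was 0.87 (standard error 0.61, 95% interval -0.70 to 2.44, limma adjusted p = 0.475), and 0.14 without LN replicate 1, but 1.60 without LN replicate 2. The TOC1 genes did not keep a constant ratio. GRMZM2G148453 had 5.06 times the FPKM of GRMZM2G020081 in LN replicate 1 and 1.15 times in LN replicate 2, against 0.879 and 0.742 times in HN replicates 1 and 2. GRMZM2G148453 was thus the higher of the pair in both LN libraries, by far the most in LN replicate 1, and the lower in both HN libraries. This ratio was not tested between treatments, and no share over other gene pairs was computed. Both are related copies, and fragments that match either one could have been divided between them in the authors' estimates.

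GI1 (GRMZM2G107101, chromosome 8 from 21104080 to 21112583), listed in the reference as gigz1a, was the most highly expressed member, with 254 and 141 FPKM in LN replicates 1 and 2, against 206 and 127 FPKM in HN replicates 1 and 2. GI2 (GRMZM5G844173, chromosome 3 from 9306148 to 9317285), listed as gigz1b, had 139 and 67.9 FPKM in LN replicates 1 and 2, against 122 and 67.2 FPKM in HN replicates 1 and 2. Both genes had the library order of the TOC1 genes, and in both the libraries numbered 2 of the 2 treatments were close together, 1.11-fold apart for GI1 and 1.01-fold for GI2. The ratio of GI1 to GI2 stayed between 1.83 and 2.08 in LN and between 1.69 and 1.89 in HN. Between treatments the log2 difference was 0.23 for GI1 (95% interval -0.83 to 1.29, limma adjusted p = 0.796) and 0.10 for GI2 (95% interval -1.12 to 1.32, adjusted p = 0.929). Without LN replicate 1 these values were -0.19 and -0.41, the opposite sign, and without LN replicate 2 they were 0.65 and 0.61.

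The 4 other PRR genes belong to the family whose Arabidopsis members repress CCA1 and LHY from morning to afternoon. GRMZM2G095727 (chromosome 9 from 138861823 to 138882725) was the highest of them, with 84.5 and 105 FPKM in LN replicates 1 and 2, against 169 and 123 FPKM in HN replicates 1 and 2. Both LN libraries lay below both HN libraries. The log2 difference was -0.61 (standard error 0.28, 95% interval -1.32 to 0.11, limma adjusted p = 0.305), the smallest adjusted p of the members, and 0.092 with the libraries scaled to equal FPKM sums. Under that scaling the median log2 fold change of all tested loci was 0.59, against -0.01 with FPKM as deposited.

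GRMZM2G179024 (chromosome 7 from 143149748 to 143155381) was the other gene whose treatments did not overlap, with 53.4 and 59.0 FPKM in LN replicates 1 and 2, against 46.5 and 43.8 FPKM in HN replicates 1 and 2. Its log2 fold change was 0.31 (standard error 0.22, 95% interval -0.25 to 0.87, limma adjusted p = 0.480). GRMZM2G033962 (chromosome 2 from 219403598 to 219441286) had 14.7 and 15.5 FPKM in LN replicates 1 and 2, against 11.3 and 15.3 FPKM in HN replicates 1 and 2. All libraries but HN replicate 1 were nearly level, and the log2 fold change was 0.18 (95% interval -0.45 to 0.82, limma adjusted p = 0.719).

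GRMZM2G135446, which the reference lists as PRR59 (chromosome 2 from 141517962 to 141523389), had 19.3 and 11.6 FPKM in LN replicates 1 and 2, against 24.2 and 11.2 FPKM in HN replicates 1 and 2. It was the PRR gene that came nearest to the TOC1 and GI pattern, since both libraries numbered 1 lay above both libraries numbered 2, but HN replicate 1 was the highest. Its log2 fold change was -0.13 (95% interval -1.28 to 1.02, limma adjusted p = 0.897), and 0.53 with equal FPKM sums.

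Across the 10 members, none was called by limma, against 0.537% of all tested loci, and none had an unadjusted p under 0.05, against 20.1% of all tested loci. The log2 fold change was below 0 for 4 members and above 0 for 6, with a median of 0.14, against -0.01 over all tested loci. The treatments did not overlap at 2 members, against 53.8% of all tested loci. Of these, 1 was lower in LN, against 27.2% of loci, and 1 was higher, against 26.6%. The intervals of CCA1, LHY and the TOC1 gene GRMZM2G148453 were wide and include differences of several-fold. That of the other TOC1 gene, GRMZM2G020081, was narrower, from -0.70 to 2.44, and its upper end is also a difference of several-fold. For the GI genes and the 4 other PRR genes the 95% intervals lay between -1.32 and 1.32.

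**Figure D2:**
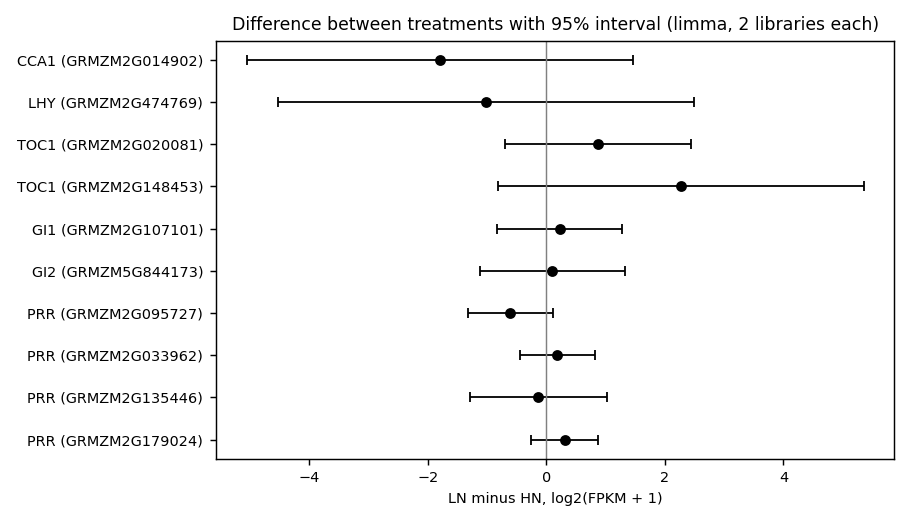
Log2 fold change of each clock gene, LN minus HN, on the log2(FPKM + 1) scale (horizontal axis), with the 95% interval from limma (bars, 2 libraries per treatment). Every interval includes 0, and those of CCA1, LHY and the TOC1 gene GRMZM2G148453 are the widest.

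The balance of morning and evening genes in each library was summarised as the mean log2(FPKM + 1) of CCA1 and LHY minus the mean over the TOC1 and GI genes. It is a description without a test. This morning minus evening level was -4.25 in LN replicate 1 and 1.34 in LN replicate 2, against -0.29 in HN replicate 1 and 1.92 in HN replicate 2. LN replicate 1 was by far the lowest, HN replicate 1 lay near 0, and the libraries numbered 2 lay above 0. LN replicate 2 was lower than HN replicate 2 (-0.57). The place of 0 depends on the FPKM of the genes averaged and marks no phase, so only differences between libraries are compared. Relative depth was about 1.4 in LN replicate 1 and 1.7 in LN replicate 2, against 1 in HN replicate 1 and 1.1 in HN replicate 2, and its part in these levels was not tested. The mean was -1.46 ± 3.96 in LN and 0.81 ± 1.56 in HN (SD, n = 2 each). The difference between treatments, -2.27, was smaller than the 5.60 between the LN libraries and about as large as the 2.20 between the HN libraries. It was 0.53 without LN replicate 1 and -5.07 without LN replicate 2. With CCA1 set against the TOC1 genes alone, the level was -4.01 and 2.22 in LN replicates 1 and 2, and 1.30 and 3.63 in HN replicates 1 and 2, which is the same order of libraries.

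**Figure D3:**
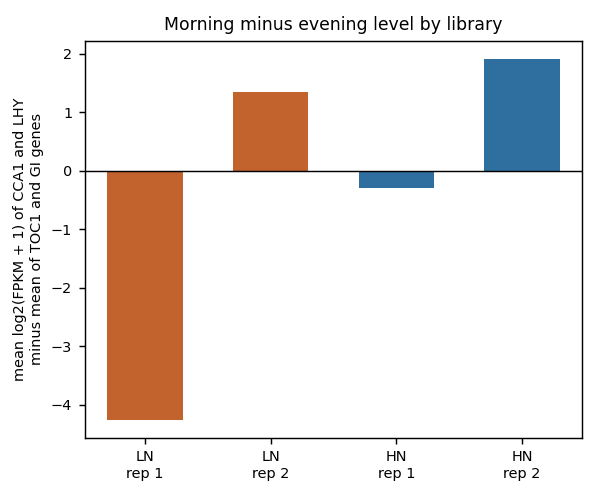
Morning minus evening level of each library, that is, mean log2(FPKM + 1) of CCA1 and LHY minus the mean of the TOC1 and GI genes (bars, 1 per library, LN in orange and HN in blue). LN replicate 1 is at -4.25, HN replicate 1 at -0.29, and both libraries numbered 2 are above 0.

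In terms of single genes, the ratio of LHY to the TOC1 gene GRMZM2G148453 was 0.139 in LN replicate 1 and 37.3 in LN replicate 2, against 10.99 in HN replicate 1 and 86.2 in HN replicate 2. In this pair the evening gene exceeded the morning gene in LN replicate 1 alone. Such a crossing depends on the pair chosen, since GI1 exceeded LHY in every library. The FPKM values were 254 against 7.36 and 141 against 136 in LN replicates 1 and 2. In HN replicates 1 and 2 they were 206 against 42.4 and 127 against 106.

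The difference between libraries of a single treatment was then compared with that of all tested loci. Over the members the median size of this difference was 0.93 in LN and 0.94 in HN, against 0.34 and 0.28 over all tested loci. LHY differed between the LN libraries by 4.03, CCA1 by 3.73 and the TOC1 gene GRMZM2G148453 by -3.54, replicate 2 minus replicate 1, each in size more than at 99.7% of tested loci. In HN the same 3 genes differed by 1.31, 1.26 and -1.12, in size more than at 92.2% to 94.4% of tested loci. Differences above 1 were found for 5 of 10 members in LN, against 10.2% of all tested loci, and for 5 of 10 in HN, against 9.95%. At the low end, GRMZM2G179024 differed by 0.14 in LN and -0.09 in HN, in size more than at 23.0% and 17.0% of tested loci.

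**Figure D4:**
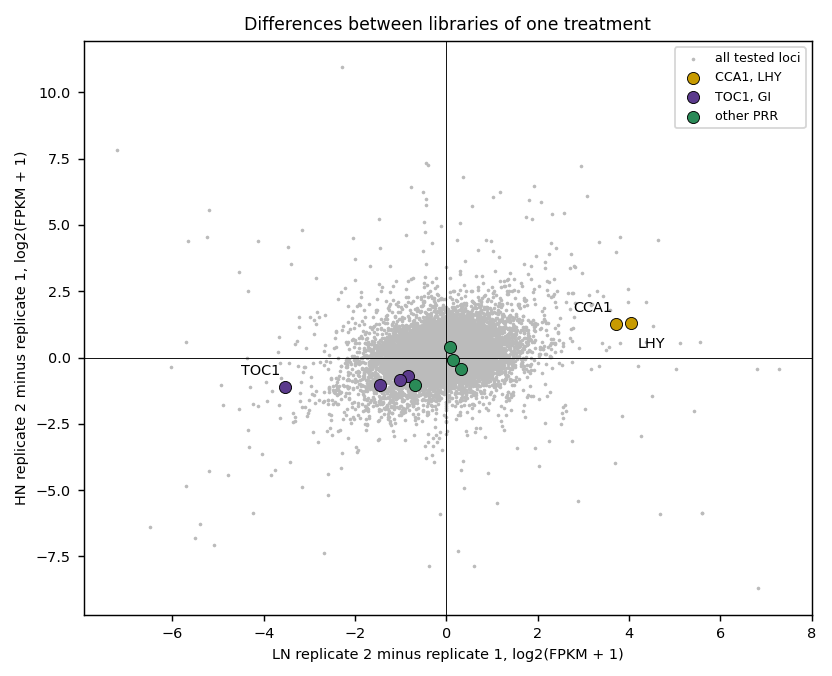
Replicate 2 minus replicate 1 on the log2(FPKM + 1) scale in LN (horizontal axis) and in HN (vertical axis), for all tested loci (grey) and for the clock genes (colours by role). CCA1 and LHY lie far to the right and above 0, at 3.73 and 4.03 in LN, and the TOC1 and GI genes lie on the opposite side of both axes.

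At 8 of 10 members the libraries numbered 1 and 2 differed in the same direction in both treatments, against 54.4% of all tested loci. The numbers only name the libraries, and nothing states that equal numbers share a harvest or a preparation. In the deposited values the libraries numbered 2 are headed HN9 and LN9, and those numbered 1 are headed HN7 and LN8. What these headings stand for is not stated. All 4 TOC1 and GI genes had the order LN replicate 1, HN replicate 1, LN replicate 2, HN replicate 2 from high to low, an order held by 2.76% of tested loci. CCA1 had exactly the reverse order, held by 3.39% of tested loci, and LHY had it but for an exchange of the libraries numbered 2. These orders were read from the members themselves, and the shares only describe how common they were.

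Taking libraries in pairs, the clock genes were most alike in LN replicate 2 and HN replicate 2, with a median difference of 0.29 in size over the 10 members and 0.37 over all tested loci. In no other pair were the members closer than all loci. The median over the members was 1.02 between LN replicate 1 and HN replicate 2, 0.67 between LN replicate 1 and HN replicate 1, and 0.61 between LN replicate 2 and HN replicate 1, against 0.42, 0.51 and 0.49 over all tested loci. Between LN replicate 2 and HN replicate 2 the largest difference among the members was 1.06, at the TOC1 gene GRMZM2G148453, which was 2.95-fold higher in LN replicate 2. CCA1 was 0.667 times and LHY 1.28 times as high in LN replicate 2 as in HN replicate 2.

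The genes whose profile over the 4 libraries was most like that of the clock genes were sought among the 2095 tested loci with a symbol or reference name, by Euclidean distance between log2(FPKM + 1) profiles centred on their mean. Nearest to the mean profile of CCA1 and LHY was CYP92C5 (GRMZM2G102079), a cytochrome P450, at a distance of 0.167, which was also the nearest of all tested loci. It had 3.20 and 54.1 FPKM in LN replicates 1 and 2, against 22.4 and 59.3 FPKM in HN replicates 1 and 2. Its relative CYP92C6 (GRMZM2G139467) was next among named loci, at 1.04, with 16.4 and 186 FPKM in LN and 41.5 and 210 FPKM in HN. They were followed by mips2 at 1.40, dxs2 at 1.41 and abc1 at 1.51, and all 5 had LN replicate 1 lowest and HN replicate 1 next.

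Nearest to the mean profile of the TOC1 and GI genes were PAPc at a distance of 0.39, MFS18 at 0.52, THI1-2 at 0.54, hao1 at 0.59 and WTF1 at 0.62. THI1-2, named for an enzyme of thiamine synthesis, was the most highly expressed of them, with 2752 and 519 FPKM in LN replicates 1 and 2, against 846 and 391 FPKM in HN replicates 1 and 2. All 5 were highest in LN replicate 1. None of these 10 loci was called between the treatments by limma, against 0.537% of all tested loci. They were picked for profiles like those of members that were not called, so this count adds no result. With 4 libraries such a likeness is a description alone.

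Other genes around the clock were sought by their reference names, which matched 18539 of 38856 annotated gene IDs. No gene was found under the names of ELF3, ELF4, LUX, ZTL, FKF1, RVE, further PRR or cryptochrome genes. Those found were light receptors (phytochromes), PIF factors that act below them, and genes of the CONSTANS and CONSTANS-like (COL) family. Of 13 such gene names, 10 were tested and none was called by limma, against 0.537% of all tested loci, and 2 of 10 had an unadjusted p under 0.05, against 20.1%. The log2 fold change was below 0 for 6 and above 0 for 4, with a median of -0.20, and the treatments did not overlap at 3 of 10, against 53.8% of all tested loci. The names GRMZM2G129889 and GRMZM2G129913, which the reference lists as a single gene (PHYC), are counted apart here. Both are among the names at which the treatments did not overlap.

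COL8 (GRMZM2G114137) had 85.1 and 98.9 FPKM in LN replicates 1 and 2, against 189 and 181 FPKM in HN replicates 1 and 2, with replicates close and treatments apart (log2 fold change -1.01, standard error 0.23, limma adjusted p = 0.136). COL5 (GRMZM2G075562) had 44.1 and 8.81 FPKM in LN, against 9.04 and 8.51 FPKM in HN, so that LN replicate 1 stood alone as it did for the TOC1 gene GRMZM2G148453. COL10 (GRMZM2G012717) had 38.6 and 7.72 FPKM in LN, against 47.0 and 38.2 FPKM in HN, and here LN replicate 2 stood apart. The maize CONSTANS gene conz1 (GRMZM2G405368) had 7.72 and 6.57 FPKM in LN, against 6.60 and 4.35 FPKM in HN, a log2 fold change of 0.35 (adjusted p = 0.525).

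Phytochrome B (PHYB, GRMZM2G124532) had 14.0 and 9.04 FPKM in LN replicates 1 and 2, against 21.9 and 13.9 FPKM in HN replicates 1 and 2, which differed by -0.59 on the log2 scale (limma adjusted p = 0.398). PhyB2 (GRMZM2G092174) and phyA2 (GRMZM2G181028) had log2 fold changes of -0.15 and -0.25. PIF5 (GRMZM2G165042) had 8.42 and 13.9 FPKM in LN, against 8.67 and 12.5 FPKM in HN, with the libraries numbered 2 higher in both treatments. The reference lists GRMZM2G129889 and GRMZM2G129913 as a single gene, PHYC, but the table holds them as neighbouring loci with opposite differences, 0.88 and -0.45 on the log2 scale, so the direction for PHYC is uncertain.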

How the data were processed

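RNA-Seq libraries of leaf 6 were aligned by the authors to B73 RefGen_v3 with TopHat2 and assembled with StringTie, and the authors deposited FPKM values for each assembled locus. Their own differential test was made with edgeR, and tool versions are not given in the sources used here. The deposited table has 44070 rows for 43110 loci, since some loci repeat their values under several names, and each locus was used once. Positions are those of the table, with the start counted from 1.

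The filter of the study, 1 FPKM or more in 2 libraries or more, left 22889 loci. log2(FPKM + 1) was computed, and LN was compared with HN by limma 3.58.1 in R 4.3.3 (lmFit, eBayes with an intensity trend, Benjamini-Hochberg adjustment). The fit was tested on simulated data. Python 3.11.15, numpy 2.4.6, pandas 2.3.3 and matplotlib 3.10.9 were used elsewhere. Reference names (RefSeq, assembly Zm-B73-REFERENCE-NAM-5.0) were used for names alone and matched 8 of the 10 members and 18539 of 38856 annotated gene IDs.

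The members and lists were chosen with earlier results of these data known. All members are named, other genes around the clock by their reference names, and like profiles as the 5 nearest named loci. Of the leaf markers, NADP malic enzyme (GRMZM2G085019) was not matched by name. RBCS, rca1 and both PPDK loci searched were above 0 in all libraries. Promoters and their motifs were not analysed here. Alternatives were a pseudocount of 0.1, other filters, other scalings, leaving out each library, the fold change threshold or the variance trend, the replicate number as a block and, chosen after the data were seen, equal medians.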

Additional observations from a re-analysis of the deposited data

How the results depend on the processing

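No clock gene was called under any of the 13 alternatives, and the lowest adjusted p that any member reached was 0.0617, for GRMZM2G179024 with equal FPKM sums. In the fit reported above, 0.537% of all tested loci were called, so a set as small as the members would seldom hold a called locus. The absence of called members therefore says little about whether their result is stable. The count of all called loci, 123, changed with the setting. It was 23 with every locus above 0 FPKM in at least 1 library tested, 60 with equal FPKM sums, 617 with the replicate number as a block, and between 0 and 16 with a library left out, which leaves 1 library in a treatment, assumed to vary like the rest. With the replicate block the unadjusted p fell under 0.05 for CCA1 and both TOC1 genes (3 members, against 23.6% of tested loci), and none passed the adjustment. The labels do not say that equal numbers form pairs, and the deviations of same-numbered libraries had a correlation of 0.203 across loci.

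Leaving out libraries changed the sign of 6 log2 fold changes, which ranged from -3.66 to 0.068 for CCA1, from -3.03 to 1.003 for LHY, from -0.19 to 0.65 for GI1, from -0.41 to 0.61 for GI2, from -0.020 to 0.39 for GRMZM2G033962 and from -0.65 to 0.39 for GRMZM2G135446. The TOC1 genes kept their sign, from 0.49 to 4.04 for GRMZM2G148453 and from 0.14 to 1.60 for GRMZM2G020081. With LN replicate 1 left out, CCA1, LHY, GI1 and GI2 were at 0.068, 1.003, -0.19 and -0.41. Without HN replicate 2, GI1 and GI2 were at -0.12 and -0.33. Without HN replicate 1, GRMZM2G033962 and GRMZM2G135446 were at -0.020 and 0.39, and without LN replicate 2 the value of GRMZM2G135446 was 0.21. Equal FPKM sums gave 0.092 for GRMZM2G095727 and 0.53 for GRMZM2G135446. The morning minus evening difference between treatments, -2.27, ranged from -5.07 to 0.53 with a library left out and from -3.36 to -2.27 under the other settings tried for it. The cause of these changes was not tested. The TOC1 genes were not tested with a minimum of 5 FPKM in at least 2 libraries, since they did not reach it.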
